A study of Mus musculus with 12 samples.

Results

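Fibroblasts turned toward heart muscle by 4 transcription factors were compared with fibroblasts given the same factors and labelled as also carrying Akt1. The libraries were chosen by their treatment labels and make up 6 of the 12 in the study, 3 labelled AGHMT and 3 labelled GHMT. GHMT cells were C57BL/6 mouse embryonic fibroblasts given Gata4, Hand2, Mef2c and Tbx5 for 3 weeks. AGHMT cells received these factors plus Akt, named as Akt1 in the series title. Both were sorted for green fluorescence from an alpha-MHC (Myh6) promoter reporter, so both sets of libraries come from cells in which that promoter was active and neither describes the whole treated culture. The other 6 libraries are 3 from fibroblasts given empty vector and 3 from isolated adult ventricular cardiomyocytes, and the labels name no sort for either. Their levels are shown for orientation. They also entered the fit of all 12 libraries, and so the gene filter, the scaling and the spread behind each p-value. No label says that replicates came from separate cultures, so p-values measure the spread between these libraries, which may be technical.

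Direct reprogramming drives a differentiated cell toward another fate with forced transcription factors. Gata4, Hand2, Mef2c and Tbx5 act in the embryonic heart, where they bind enhancers of genes for contraction, ion handling and cardiac signalling. Akt1 is a serine/threonine kinase activated through phosphoinositide 3-kinase by insulin and insulin-like growth factors. It promotes growth, survival and glucose use, raises protein synthesis through mTOR, and holds FoxO transcription factors out of the nucleus by phosphorylating them. Adult heart muscle draws most of its energy from mitochondrial oxidation of fatty acids, and cultured fibroblasts rely more on glycolysis.

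The 2 groups differed in depth. The AGHMT libraries held between 14386407 and 18493989 reads assigned to genes, and the GHMT libraries between 1872558 and 2200815. Mitochondrially encoded genes took 36.6% to 42.7% of the gene reads in the AGHMT libraries and 27.8% to 72.2% in the GHMT libraries, which left GHMT replicate 1 with 612458 reads on nuclear genes. A count of 3 reads, used here as a floor, corresponds to 1.56 to 3.93 CPM (read counts scaled to library size) in a GHMT library and to 0.164 to 0.231 CPM in an AGHMT library. For this reason the results are read from 4547 well-counted genes, whose mean over the 6 libraries was at least 20 CPM after TMM scaling, which sets library sizes by a trimmed mean of gene ratios. A gene may reach this mean through 1 group. The called share of a list can then rest partly on genes admitted by the group where they are high. All 4547 had reads in the GHMT group. Among them the replicates correlated at 0.975 to 0.982 within AGHMT and at 0.657 to 0.781 within GHMT on the log2 CPM scale, and the median coefficient of variation was 0.122 in AGHMT and 0.423 in GHMT. Depth differed with the groups without exception, so its part in any difference cannot be told apart from that of the treatment. In bulk RNA, fewer cells of a type and less RNA per cell cannot be told apart either.

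Genes of heart muscle and of mitochondrial energy supply were among those that rose in the AGHMT-labelled cells, and genes of TGF-beta and BMP signalling, chromatin control and the interferon response were among those that fell. Over all 15059 genes tested by quasi-likelihood in edgeR, with p-values adjusted by Benjamini and Hochberg's method, 1993 were higher (13.2%) and 689 lower (4.58%) in AGHMT. Of the 1993, 657 had no read in any GHMT library and 440 had 1 to 3, so 17.0% of the higher calls and 80.3% of the lower calls were well counted. Among the 4547 well-counted genes 338 were higher (7.43%) and 553 were lower (12.2%). The 3 AGHMT values lay wholly above the 3 GHMT values in 337 of the 338 and wholly below them in 530 of the 553, against 16.8% and 24.2% of all well-counted genes in those directions. The higher calls had a median log2 fold change of 1.75 (range 0.77 to 5.56) and the lower calls one of -1.47 (-6.04 to -0.78), where 1 unit is a 2-fold difference.

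**Figure D1:**
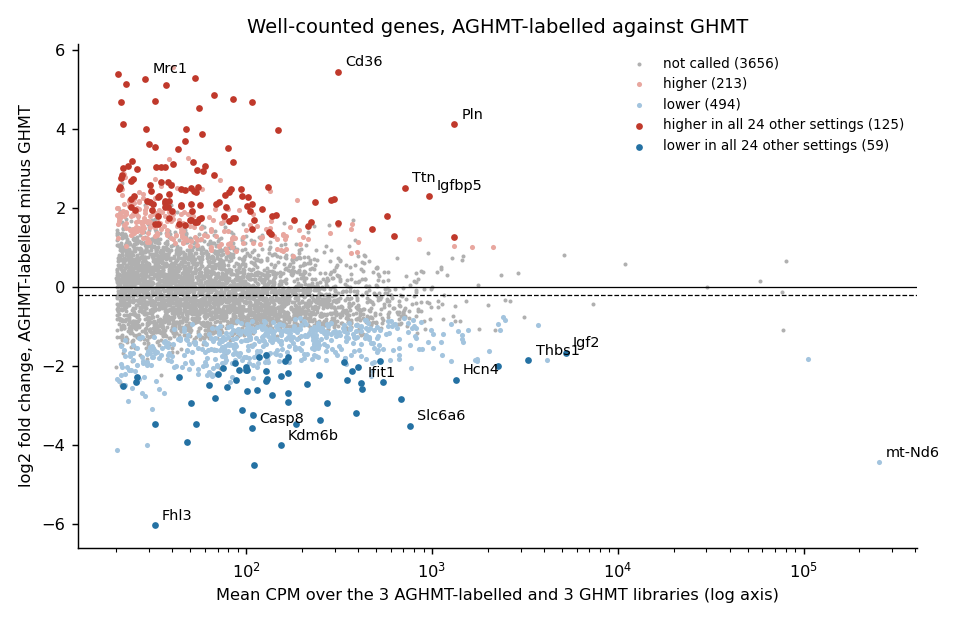
Log2 fold change of AGHMT-labelled over GHMT (vertical axis) against the mean CPM over the 6 libraries (horizontal log axis), 1 point per well-counted gene. Pale red and blue mark higher and lower calls, dark points the 125 and 59 that held in all 24 other settings, and the dashed line the median of -0.21; Fhl3 is the lowest point at -6.04 and Cd36 stands at 5.44.

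The balance of the 2 directions depended on how the libraries were put on a common scale. The median log2 fold change of well-counted genes was -0.21 with TMM scaling, -0.35 with DESeq2's size factors, 0.18 with mitochondrially encoded genes left out, and 0.35 with total counts. The well-counted calls were 338 higher and 553 lower with TMM, 314 and 882 with size factors, 655 and 255 without mitochondrially encoded genes, and 519 and 95 with total counts. Higher calls made up 37.9%, 26.3%, 72.0% and 84.5% of them in that order. Under all 4 scalings 296 genes were called higher (6.51%) and 94 lower (2.07%). Leaving out AGHMT replicate 3 left 64 lower calls and leaving out the empty-vector replicate 1 left 148, and the well-counted median then stood at 0.45 and 0.43. The calls were therefore repeated in 24 alternative settings (other scalings, filters, models and left-out libraries, but not the test against a 1.5-fold change). A gene called in all 24 is here termed stable. A gene said below to rise or fall was stable unless a number of settings or a lost call is given. The stable well-counted genes were 125 higher (2.75%) and 59 lower (1.3%). The edgeR counts of a gene list below are to be read beside the 7.43% of well-counted genes that rose and the 12.2% that fell. DESeq2 called 470 well-counted genes higher and 1249 lower, and limma 447 and 888, so their list counts have other backgrounds.

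**Figure D2:**
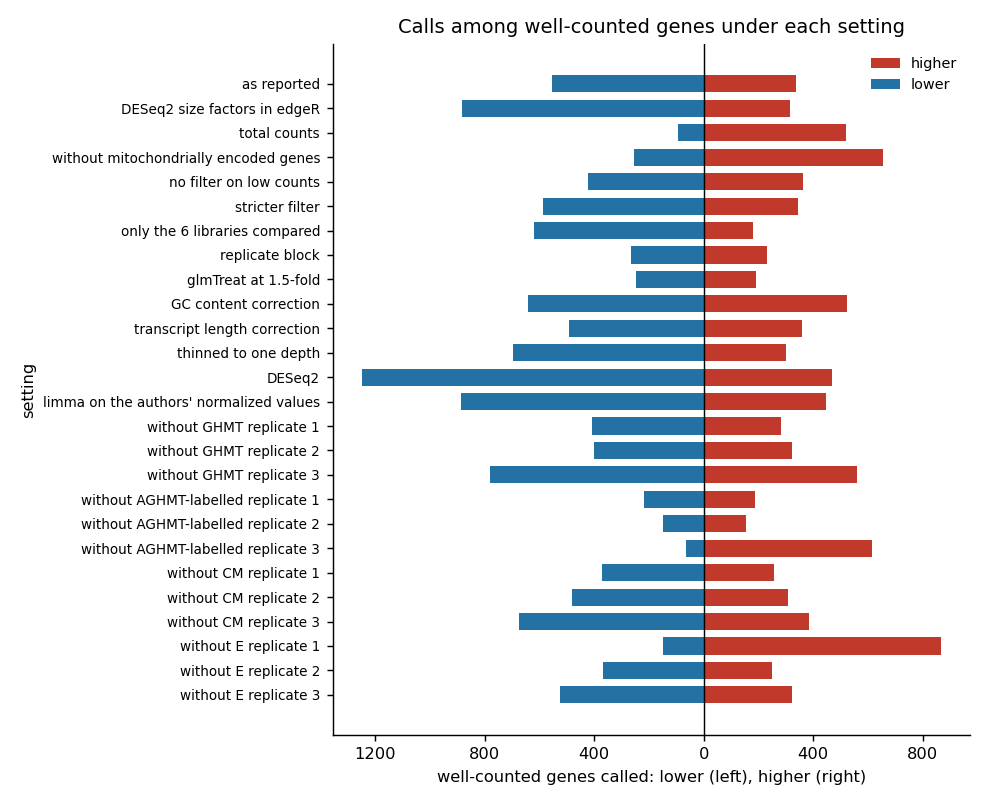
Number of well-counted genes called lower (bars to the left) and higher (bars to the right) in AGHMT under each setting (1 row each). The lower calls range from 64 without AGHMT replicate 3 to 1249 with DESeq2, and the higher calls from 153 without AGHMT replicate 2 to 868 without the empty-vector replicate 1.

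The forced genes come first because they check the labels. Akt1 (ENSMUSG00000001729, chr12:112653821-112674884, minus strand, GRCm38) counted 7.30, 12 and 19.6 CPM in the AGHMT libraries and 1.31, 13.5 and 13.7 CPM in the GHMT libraries. The groups overlap, the log2 fold change was 0.34 ± 0.79 (SE, n = 3 and 3, edgeR adjusted p = 0.786) with a 95% interval of -1.34 to 2.02, and both groups lay below the mean of 62.9 CPM in empty-vector fibroblasts and 48.7 CPM in cardiomyocytes. The counts therefore give no sign of the added gene, and "AGHMT-labelled" is used for these cells. A transgene that lacks the counted part of the mouse gene would not show here, and which form was given is not stated in the labels. Gata4 (log2 fold change 0.20, edgeR adjusted p = 0.871) and Hand2 (0.12, adjusted p = 0.927) also overlapped between the groups. Mef2c stood at 163, 156 and 175 CPM in AGHMT and at 246, 191 and 216 in GHMT, a log2 fold change of -0.40 ± 0.31 with an edgeR adjusted p of 0.388. Tbx5 stood at 63.8, 105 and 109 against 151, 133 and 177 CPM, a log2 fold change of -0.73 ± 0.31 with an adjusted p of 0.111. The 3 AGHMT values of Mef2c and of Tbx5 were below all 3 GHMT values, yet neither passed the edgeR test as reported. Tbx5 passed in 2 alternatives, with DESeq2 (log2 fold change -0.88, adjusted p = 0.0358) and with GC correction in edgeR (-1.19, adjusted p = 0.0045), and Mef2c in none.

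Myh6, whose promoter drove the sorted reporter, stood at 108, 223 and 104 CPM in AGHMT and at 28.8, 42.7 and 71.5 CPM in GHMT. All AGHMT values were the higher ones, but the log2 fold change of 1.58 ± 0.68 did not pass (edgeR adjusted p = 0.117). It passed in 4 settings, with no filter on low counts, with the 6 libraries alone, and without cardiomyocyte replicate 3 or empty-vector replicate 1. Cardiomyocytes averaged 7423 CPM and empty-vector fibroblasts 0.986 CPM, so both sorted groups lay far below heart muscle and far above fibroblasts.

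Genes of the respiratory chain were higher in the AGHMT-labelled cells. Of 24 well-counted members among 56 nuclear-encoded genes of the chain and ATP synthase, 18 rose (75%) and none fell. Among all well-counted genes 7.43% rose and 12.2% fell. The median log2 fold change of the list was 1.86 (range -0.15 to 2.73) beside -0.21 for all well-counted genes. The number that rose ran from 12 to 20 over the 24 settings and was 14 without GHMT replicate 1, and 12 members were stable. At an unadjusted p under 0.05 edgeR found 19 higher and 0 lower, and DESeq2 and limma also called 0 lower. The stable members span 4 of the complexes. Uqcrc2, a core subunit of the cytochrome bc1 complex, stood at 221, 283 and 164 CPM in AGHMT and at 11.8, 30.2 and 72.2 CPM in GHMT. Its lowest AGHMT library was above its highest GHMT library, and the log2 fold change was 2.51 ± 0.47 (edgeR adjusted p = 0.0037). Atp5a1, the alpha subunit of ATP synthase, stood at 467, 553 and 449 against 34.1, 75.6 and 203 CPM (log2 fold change 2.21 ± 0.46, edgeR adjusted p = 0.00602). GHMT replicate 1 was the lowest and replicate 3 the highest GHMT library for both genes, and the groups did not overlap for either. The complex I subunits Ndufa9, Ndufa5 and Ndufs1 rose by log2 fold changes of 2.72, 2.57 and 1.69. The succinate dehydrogenase subunit Sdha rose by 1.81 and the ATP synthase subunit Atp5b by 2.13. Ndufa9 and Ndufa5 averaged 6.27 and 9.01 CPM in GHMT and were well counted through AGHMT. In cardiomyocytes Uqcrc2 averaged 1308 CPM and Atp5a1 3368 CPM, and in empty-vector fibroblasts they averaged 113 and 270 CPM, so the GHMT libraries lay below fibroblasts for these 2 genes and the AGHMT libraries between fibroblasts and heart.

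Genes of the tricarboxylic acid cycle moved in the same direction. Of 14 well-counted members among 22, 7 rose (50%, beside 7.43% of all well-counted genes) and none fell, with a median log2 fold change of 1.32. Neither edgeR's unadjusted p under 0.05 nor DESeq2 nor limma gave a fall (0 in each). Mdh1, the cytosolic malate dehydrogenase of the malate-aspartate shuttle, stood at 127, 204 and 142 CPM in AGHMT against 48.5, 15.6 and 24.7 in GHMT (log2 fold change 2.47 ± 0.40, edgeR adjusted p = 0.0018). Idh3b, a subunit of NAD-dependent isocitrate dehydrogenase, rose by 1.95 and Dlst, of the 2-oxoglutarate dehydrogenase complex, by 1.59 on the log2 scale. All 3 were stable. A further 4 genes, picked after their values were seen, act on mitochondrial number and shape. Ppargc1a, a coactivator that switches on mitochondrial genes, stood at 94.4, 69.6 and 76.9 CPM against 17.0, 26.6 and 33 CPM (log2 fold change 1.63 ± 0.37, edgeR adjusted p = 0.00991). Fibroblasts with empty vector averaged 0.204 CPM for it and cardiomyocytes 159 CPM. Mfn2, a mitofusin of the outer membrane, stood at 52.6, 62.4 and 61.2 CPM against 3.93, 9.38 and 6.87 CPM (log2 fold change 3.04 ± 0.39, edgeR adjusted p = 0.000412). Its relative Mfn1 rose by 1.73, and Ppargc1a, Mfn2 and Mfn1 were stable. Tfam, which packages and transcribes mitochondrial DNA, rose by 2.14 and lost its call in 3 settings.

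**Figure D3:**
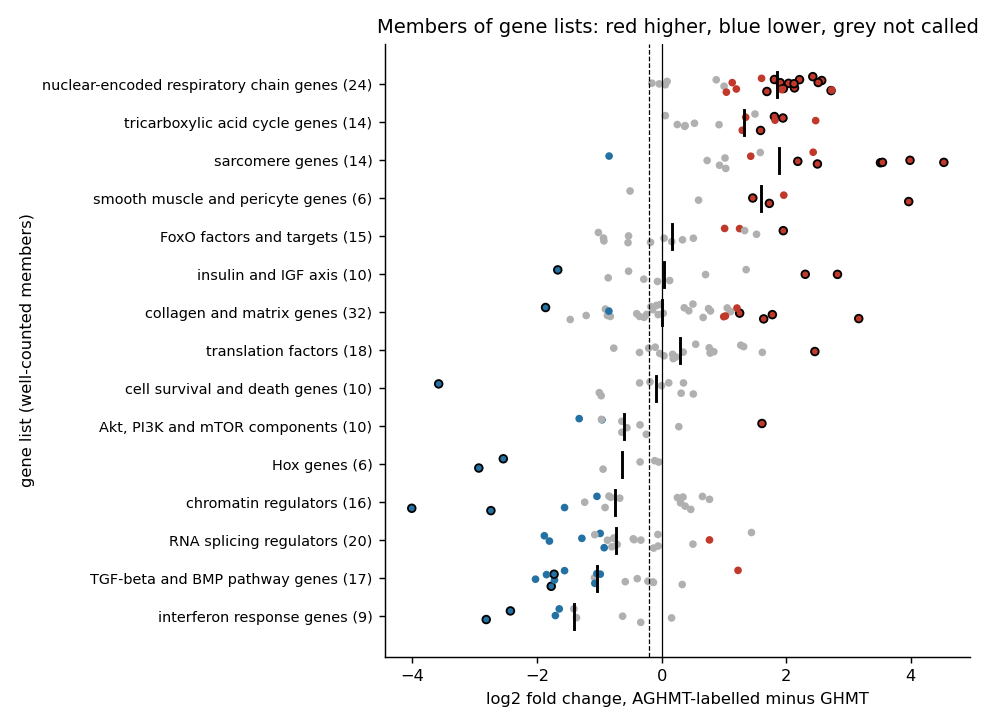
Log2 fold change of AGHMT-labelled over GHMT (horizontal axis) for the well-counted members of 15 gene lists, 1 point per gene, red where called higher, blue where called lower, with a black rim where stable. The black bar is the median of the list, 1.86 for respiratory chain genes and -1.04 for TGF-beta and BMP genes, and the dashed line is the median of all well-counted genes at -0.21.

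The mitochondrial genome itself encodes 13 messenger RNAs of the chain. Of 7 that were well counted, none rose (0 also at an unadjusted p under 0.05 in edgeR, and by DESeq2 and limma), and mt-Nd5 and mt-Nd6 fell. mt-Nd6, the messenger RNA that lies alone on the light strand, took 43.1% of gene reads in GHMT replicate 1 (Wilson 95% interval 43.03 to 43.16), 3.34% in replicate 2 and 14% in replicate 3. In the AGHMT libraries it took between 1.73% and 2.55%. Those intervals cover counting error only, since reads are not independent molecules. The log2 fold change of mt-Nd6 was -4.44 ± 0.90 (edgeR adjusted p = 0.00544), kept in 23 of 24 settings. The remaining setting leaves out mitochondrially encoded genes, so none of them could be stable. The fall of mt-Nd5 was kept in 15 of 24, with that setting again counted as lost, and was not firm. Its call was lost without GHMT replicate 1 (log2 fold change -0.89, edgeR adjusted p = 0.185), without AGHMT replicate 1 (-1.95, edgeR adjusted p = 0.0655), replicate 2 (-1.73, 0.102) or replicate 3 (-1.01, 0.227), and without empty-vector replicate 1 (-1.07, 0.0814), and also with total counts, the replicate block and GC correction. The kit is a stranded one, but how strand was set in counting is not stated in the labels, so reads of mt-Nd6 and those of the opposite strand may not have been separated.

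Fat uptake and glycogen genes included the sharpest changes. Cd36 (ENSMUSG00000002944, chr5:17781690-17888801, minus strand), the fatty acid transporter of the cell surface, stood at 696, 510 and 630 CPM in AGHMT and at 5.24, 24 and 10.3 CPM in GHMT. The groups were far apart, with a log2 fold change of 5.44 ± 0.49 (edgeR adjusted p = 4.98e-05), and cardiomyocytes averaged 1546 CPM and empty-vector fibroblasts 2.16 CPM. Fabp4, a fatty acid carrier of adipocytes and capillary endothelium, rose by 2.99 on the log2 scale. Lpl, which releases fatty acids from lipoproteins, rose by 1.02 and kept its call in 16 of the 24. Among 13 well-counted genes of fatty acid oxidation 7 rose (53.8%, beside 7.43% of all well-counted genes) and none fell (0 lower by edgeR's unadjusted p, DESeq2 or limma). The 2 stable ones were Hadha of the trifunctional protein, at a log2 fold change of 2.39, and Slc25a20, the carnitine-acylcarnitine carrier, at 2.29.

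Glycogen is stored in heart muscle on particles that carry protein phosphatase 1 through targeting subunits. Ppp1r3a, the striated-muscle targeting subunit, stood at 153, 110 and 127 CPM in AGHMT and at 2.62, 5.21 and 4.81 CPM in GHMT (log2 fold change 4.86 ± 0.45, edgeR adjusted p = 5.45e-05). It averaged 228 CPM in cardiomyocytes and 0.134 CPM in empty-vector fibroblasts. The related subunit Ppp1r3b rose by 3.06, and Ppp1r3c by 2.51 with its call lost in 2 settings, the fit of the 6 libraries alone and the one without GHMT replicate 2 (2.09, edgeR adjusted p = 0.0507). These glycogen genes were grouped after their values were seen. Of 5 well-counted glycolysis genes, 1 rose (20%) and 1 fell (20%).

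Contractile genes rose with them. Of 14 well-counted sarcomere genes 8 rose (57.1%) and 1 fell (7.14%), beside 7.43% and 12.2% of all well-counted genes. The median log2 fold change was 1.89, and 6 of the rises were stable. Ttn, the giant spring protein titin, stood at 1318, 1168 and 1170 CPM against 193, 194 and 258 CPM (log2 fold change 2.50 ± 0.28, edgeR adjusted p = 0.00017). Xirp2, an actin-binding protein of the intercalated disc, rose by 4.53, Lmod2, which lengthens thin filaments, by 3.99, Myoz2, a Z-disc protein that binds calcineurin, by 3.54, Myom1 of the M-band by 3.51, and Actc1, cardiac alpha-actin, by 2.19. Smyd1, a muscle methyltransferase, rose by 3.87. The fall was that of Ldb3, a Z-disc protein, which kept its call in 9 settings. Pln, the phospholamban that restrains the calcium pump of the sarcoplasmic reticulum, stood at 2754, 2206 and 2490 CPM against 138, 112 and 179 CPM. Its log2 fold change was 4.12 ± 0.49 (edgeR adjusted p = 0.000291), and cardiomyocytes averaged 7954 CPM. Slc8a1, the sodium-calcium exchanger, rose by 1.71. Of 19 well-counted genes of calcium cycling and excitation 5 rose (26.3%) and 1 fell (5.26%), with 2 rises without GHMT replicate 1 and 2 to 12 over the settings, and Pln and Slc8a1 were the stable rises. Outside these lists Ckmt2, the sarcomeric mitochondrial creatine kinase, rose by 3.61.

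Against this, the pacemaker channel gene Hcn4 fell. It stood at 241, 506 and 572 CPM in AGHMT and at 2918, 2527 and 1271 CPM in GHMT, and was at 8.78 CPM in ventricular cardiomyocytes and 0.154 CPM in empty-vector fibroblasts. The log2 fold change of -2.35 ± 0.39 was stable (edgeR adjusted p = 0.00188). It was the 1 gene that edgeR called among 8 well-counted genes of the sinus node, where DESeq2 called 2 lower and 1 higher and limma 2 lower. That 1 fall is 12.5% of the list, close to the 12.2% of all well-counted genes. None was called among 7 well-counted genes of the atrium, where edgeR gave 3 lower at an unadjusted p under 0.05, DESeq2 called 2 lower and limma 1. Over all 16 sinus node genes tested, 2 were higher in edgeR, neither well counted and both without a GHMT read. Of 13 well-counted cardiac transcription factors 3 fell in edgeR (23.1%), none in all settings, and 1 without GHMT replicate 1, while DESeq2 called 5 lower and 2 higher. They included Myocd, the myocardin coactivator (102, 83.4 and 104 against 472, 290 and 125 CPM, kept in 18 settings), and Mef2a (kept in 17).

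Several of the largest rises were muscle genes outside these lists. Lrtm1, a membrane protein with leucine-rich repeats, stood at 110, 98.6 and 101 CPM in AGHMT and between 2.61 and 2.75 CPM in GHMT (log2 fold change 5.27 ± 0.44, edgeR adjusted p = 4.85e-05). Its GHMT values rest on 2, 5 and 4 reads. Fsd2, Mylk4 and Tmem182 rose by fitted log2 fold changes of 5.39, 5.12 and 4.69, also from GHMT libraries holding at most 5 reads each. The sizes of the rises of Lrtm1 and of these 3 genes are therefore uncertain. Mylk4 encodes a myosin light chain kinase. Mhrt, a noncoding RNA transcribed from the Myh7 locus on the opposite strand, was counted with 0, 3 and 7 reads in GHMT and 37.5 to 47.2 CPM in AGHMT, and without a stated strand setting its reads and those of Myh7 cannot be told apart.

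MEF2 factors bind a short AT-rich site at many muscle promoters, and Mef2c was forced in both groups. The core letters CTA and TAG with any 4 bases between them, searched on both strands, were sought from 250 bases before to 50 after the RefSeq start of each gene (GRCm38.p6). They occurred in 4.23% of 27025 promoters, in 3.38% of 3487 well-counted genes with a promoter, in 6.69% of 254 of the higher calls, in 3.4% of 412 of the lower calls, and in 5 of 23 sarcomere genes (21.7%). The 250 upstream bases of 3 stable sarcomere genes are shown because each holds 1 match, in capitals. Xirp2 lies at chr2:67445752-67446001 on the plus strand, Ttn at chr2:76982548-76982797 and Myoz2 at chr3:123034988-123035237 on the minus strand, and the matches start 74, 166 and 33 bases before the start site.
Xirp2: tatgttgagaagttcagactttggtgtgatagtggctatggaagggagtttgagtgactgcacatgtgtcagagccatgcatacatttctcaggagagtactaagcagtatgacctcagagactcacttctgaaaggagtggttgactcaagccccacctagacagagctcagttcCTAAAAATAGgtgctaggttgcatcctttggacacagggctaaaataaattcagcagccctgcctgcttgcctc
Ttn: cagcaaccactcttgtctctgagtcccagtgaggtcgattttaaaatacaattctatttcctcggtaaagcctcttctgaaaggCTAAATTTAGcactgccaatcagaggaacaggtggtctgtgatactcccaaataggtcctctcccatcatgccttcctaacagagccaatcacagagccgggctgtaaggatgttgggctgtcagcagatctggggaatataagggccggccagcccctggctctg
Myoz2: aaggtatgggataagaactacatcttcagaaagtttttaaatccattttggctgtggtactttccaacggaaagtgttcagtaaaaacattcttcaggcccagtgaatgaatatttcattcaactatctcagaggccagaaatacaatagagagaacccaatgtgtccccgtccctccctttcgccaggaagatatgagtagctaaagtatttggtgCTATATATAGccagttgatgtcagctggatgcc
A match describes letters in this window and is no evidence of binding.

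Of 10 well-counted Akt, PI3K and mTOR components 1 rose and 2 fell in edgeR, close to the 7.43% and 12.2% of all well-counted genes, with a median of -0.60. Log2 fold changes were above 0 in 2 of the 10, the AGHMT values lay wholly below GHMT in 6, and DESeq2 and limma each called 6 lower and 1 higher. Pik3r1, the regulatory subunit of phosphoinositide 3-kinase, stood at 546, 397 and 470 CPM in AGHMT and at 199, 124 and 141 CPM in GHMT (log2 fold change 1.61 ± 0.32, edgeR adjusted p = 0.00529). Another regulatory subunit outside the list, Pik3r3, rose by 2.09, and both were stable. Gsk3b, a kinase that Akt inhibits, fell by 0.96 and kept this call in 15 settings. Of 10 well-counted genes of the insulin and insulin-like growth factor axis 2 rose (20%) and 1 fell (10%) in edgeR, with a median of 0.03. The shares of all well-counted genes were 7.43% and 12.2%. DESeq2 called 3 of the 10 higher and 2 lower, and limma 2 and 2. Igf2, the fetal growth factor, stood at 2417, 2068 and 3068 CPM in AGHMT and at 7465, 8268 and 8237 CPM in GHMT, with fibroblasts at 623 and cardiomyocytes at 89.0 CPM. It fell by 1.67 on the log2 scale (SE 0.25, edgeR adjusted p = 0.00108). The binding proteins Igfbp5 (1473, 1656 and 1679 against 315, 358 and 299 CPM) and Igfbp4 rose by 2.31 and 2.82. These 3 calls were stable, and the groups did not overlap in any of them.

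FoxO factors raise atrophy, stress and gluconeogenic genes when Akt activity is low. Of 15 well-counted FoxO factors and targets 3 rose (20%) and none fell, with a median of 0.16. At an unadjusted p under 0.05 edgeR gave 4 higher and 3 lower. DESeq2 called 4 higher and 4 lower and limma 5 and 3, where they called 1249 and 888 of all well-counted genes lower. Foxo4 stood at 32.3, 43.0 and 45.4 CPM against 6.55, 12 and 11.7 CPM, a stable rise of 1.95 ± 0.38 (edgeR adjusted p = 0.00424). Fbxo32, the muscle ubiquitin ligase atrogin-1, rose by 1.25 and kept its call in 23 settings, and Foxo3 rose by 1.01 and kept it in 16. The FoxO core letters GTAAACA, on either strand, were in 5 of 20 promoters of this list (25.0%), 4.05% of all promoters, 4.72% of the higher and 1.94% of the lower calls. These are messenger RNA levels and say nothing of phosphorylation. Of 10 well-counted survival and death genes, Casp8 was the 1 called by edgeR (10%, beside the 12.2% of all well-counted genes that fell). This initiator caspase of death receptors stood at 14.1, 19.3 and 16.0 CPM against 294, 88.1 and 211 CPM (log2 fold change -3.58 ± 0.43, edgeR adjusted p = 0.000333, stable), and empty-vector fibroblasts averaged 40.8 CPM.

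TGF-beta and BMP ligands bind paired serine/threonine kinase receptors that phosphorylate Smad proteins. Of 17 well-counted members of a list of 33, 9 fell and 1 rose, beside the 12.2% of well-counted genes that fell, and the median was -1.04 with and without GHMT replicate 1. The falls numbered 2 to 10 over the settings, and 2 were stable. Among ligand regulators, Ltbp1, which anchors latent TGF-beta in the matrix, stood at 55.3, 46.1 and 57.3 CPM against 165, 219 and 157 CPM (log2 fold change -1.77 ± 0.27, edgeR adjusted p = 0.00123, stable). The secreted BMP antagonist Grem1 stood at 289, 244 and 245 against 807, 970 and 1018 CPM, a fall of 1.85 that was lost without AGHMT replicate 3 (log2 fold change -1.15, edgeR adjusted p = 0.0959). Among receptors, the co-receptor Tgfbr3 stood at 62.8, 54.0 and 60.1 against 239, 169 and 178 CPM, a stable fall of 1.72 (SE 0.27, edgeR adjusted p = 0.00134). Bmpr2 fell by 1.56 and lost its call with total counts and without AGHMT replicate 3 (log2 fold change -0.88, edgeR adjusted p = 0.167). Bmpr1a and Tgfbr1 kept their falls in 12 and 8 settings. Of the intracellular inhibitors, Smad7 stood at 13.3, 16.8 and 17.7 against 121, 34.9 and 41.9 CPM (kept in 17 settings) and Skil kept its fall in 13. The ligand gene Bmp2 fell by 1.72 in 17 settings. Fzd7, a Wnt receptor, was the stable fall among 9 well-counted Wnt genes, of which edgeR called 2 lower (22.2%) and 0 higher (0 higher also at an unadjusted p under 0.05, and by DESeq2 and limma).

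Interferon-induced genes with enough reads in both groups included several that were lower in the AGHMT-labelled cells. Of 9 well-counted members among 31, 4 fell (44.4%, beside 12.2% of all well-counted genes) and none rose, with a median of -1.41 that was -1.56 without GHMT replicate 1. No rise appeared at an unadjusted p under 0.05 in edgeR or with DESeq2 or limma (0 in each). Ifit1 (chr19:34640871-34650009, plus strand), an antiviral protein that binds foreign RNA, stood at 124, 116 and 149 CPM in AGHMT and at 832, 666 and 590 CPM in GHMT. Empty-vector fibroblasts averaged 4.18 CPM and cardiomyocytes 15.3 CPM, so both sorted groups were above both references. The log2 fold change was -2.43 ± 0.33 (edgeR adjusted p = 0.000581, stable). Ifi44 stood at 16.8, 17.1 and 16.5 CPM against 143, 118 and 94.2 CPM, a stable fall of 2.81 (SE 0.39, edgeR adjusted p = 0.00057). Ifit2, of the same family, and Ifih1, the double-stranded RNA sensor MDA5, fell by 1.70 and 1.64 and each kept its call in 22 settings. Over all 27 members tested, 6 were lower and 2 higher. The higher ones, Gbp2, an interferon-induced GTPase, and Mx1, an antiviral GTPase, were not well counted. Gbp2 had 0, 0 and 1 reads in the GHMT libraries and 153, 278 and 210 in the AGHMT libraries, and Mx1 had no GHMT read and 12, 21 and 24 AGHMT reads. Ifit2 and Ifih1 lost their calls with total counts and without AGHMT replicate 3, where the log2 fold changes were -1.04 and -0.97. Cmpk2, an interferon-induced mitochondrial nucleotide kinase outside the list, stood at 6.07, 6.61 and 6.54 against 53.7, 30.2 and 26.8 CPM, a stable fall of 2.51. Ifit genes lie side by side and share sequence, so reads that map to several of them were not counted.

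Interferon acts through response elements that bind ISGF3. The core of GAAA, any 2 bases and GAAA again, on either strand, was in 14 of 25 promoters of this list (56.0%), in 3.99% of all promoters, in 4.72% of the higher and in 4.85% of the lower calls. The Ifit1 promoter, at chr19:34640639-34640888, is shown because it holds 2 such matches on the reverse strand, in capitals, the farther starting 104 bases before the start site.
Ifit1: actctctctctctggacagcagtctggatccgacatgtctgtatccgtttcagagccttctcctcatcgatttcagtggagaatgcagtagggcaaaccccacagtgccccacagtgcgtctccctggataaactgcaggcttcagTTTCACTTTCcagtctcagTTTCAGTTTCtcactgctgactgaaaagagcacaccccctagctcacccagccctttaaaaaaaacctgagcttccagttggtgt

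Chromatin genes held some of the steepest falls. Of 16 well-counted regulators 4 fell, 2 of them stable, beside the 12.2% of all well-counted genes that fell, and 2 to 8 fell over the settings. The median was -0.74, and -0.09 without GHMT replicate 1. None rose in edgeR, with 1 higher at an unadjusted p under 0.05, or with DESeq2 or limma. Kdm6b, the histone H3 lysine demethylase JMJD3, stood at 13.7, 14.9 and 25.2 CPM against 152, 398 and 315 CPM (log2 fold change -4.01 ± 0.66, edgeR adjusted p = 0.0019), with fibroblasts at 11.9 and cardiomyocytes at 13.2 CPM. Arid1b, a subunit of the BAF remodelling complex, stood at 37.5, 32.3 and 37.7 against 312, 236 and 172 CPM (-2.74 ± 0.33, edgeR adjusted p = 0.000324). The AGHMT libraries thus lay near the fibroblast level of Kdm6b and the GHMT libraries far above it. Bmi1 and Tet3 fell in 20 and 11 settings. Setd1b, a histone methyltransferase outside the list, fell by 3.49 in all settings, but its GHMT libraries spread from 18.4 to 200 CPM. Of 6 well-counted Hox genes 2 fell (33.3%), both stable, Hoxc10 by 2.93 and Hoxc6 by 2.54. Tbx15, a limb and body-wall factor, stood at 88.0, 69.4 and 71.8 against 1363, 308 and 449 CPM (-3.21 ± 0.47, edgeR adjusted p = 0.00101). The fall of Osr1, a factor of kidney and limb mesenchyme, was kept in 18 settings. It was lost without GHMT replicate 3 (log2 fold change -1.43, edgeR adjusted p = 0.237), without AGHMT replicate 1, 2 or 3 (edgeR adjusted p = 0.0617, 0.0543 and 0.0845), with the replicate block and with limma.

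Splicing regulators showed falls that were less firm. Of 20 well-counted members 5 fell and 1 rose, beside the 12.2% and 7.43% of all well-counted genes. Without GHMT replicate 1 3 fell and 0 rose by edgeR, and the median of -0.74 became -0.48. No member was stable and the number of falls ran from 0 to 12 over the settings. Mbnl2, a muscleblind protein of muscle and brain splicing, stood at 845, 670 and 726 CPM against 4069, 2660 and 1527 CPM, and lost its call without AGHMT replicate 3 alone (log2 fold change -1.15, edgeR adjusted p = 0.074). Srsf2 fell in 22 settings, Srsf5 in 18, Rbm24 in 12 and Mbnl1 in 9, and the rise of Rbfox2 held in 9.

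The extracellular matrix did not move as a block. Of 32 well-counted collagen and matrix genes 7 rose (21.9%) and 2 fell (6.25%), and the median was 0.00. Among all well-counted genes 7.43% rose and 12.2% fell. Without GHMT replicate 1 the counts were 4 and 3. Postn, the matricellular protein of activated fibroblasts, stood at 981, 942 and 752 CPM against 107, 300 and 368 CPM, a stable rise of 1.78 (SE 0.40, edgeR adjusted p = 0.00978), with empty-vector fibroblasts at 4396 CPM. Tnc (1.64), Col14a1 (3.16) and Col3a1 (1.25) also rose in all settings. Thbs1, which activates latent TGF-beta, stood at 1429, 1330 and 1521 against 5680, 5149 and 4727 CPM, a stable fall of 1.86 (SE 0.31, edgeR adjusted p = 0.0019), and Col12a1 fell in 13 settings. Dpt, the dermatopontin of fibroblast matrix, stood at 140, 233 and 243 CPM against 7.87, 6.25 and 10.3 CPM (log2 fold change 4.67 ± 0.40, edgeR adjusted p = 4.85e-05), above the 46.6 CPM of empty-vector fibroblasts. It was the 1 rise (9.09%) among 11 well-counted fibroblast identity genes, of which 3 fell (27.3%). Enpp2, which makes lysophosphatidic acid, rose by 4.76.

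Markers of other cell types also differed between the sorted groups. The summed level of 19 macrophage genes ran from 79.5 to 150 CPM in AGHMT and from 3.93 to 8.25 CPM in GHMT, where 12 of the 19, among them Cd68, Adgre1 and C1qa, had no read. All 19 had reads in AGHMT. The macrophage receptor Mrc1 stood at 86.2, 45.0 and 35.4 CPM in AGHMT and had 1, 3 and 2 reads in the GHMT libraries. Adipocyte genes summed to 63.1 to 73.4 against 5.73 to 13.7 CPM, mostly Fabp4 at 42.3 to 51.4 CPM in AGHMT, with Plin1 and Cidec without a read in both groups and Adipoq without one in GHMT. Smooth muscle and pericyte genes summed to 1472 to 1696 against 574 to 853 CPM, and 4 of their 6 well-counted members rose (66.7%, beside 7.43% of all well-counted genes), 3 of them in all settings. Rgs5, the pericyte marker, stood at 303, 263 and 270 against 1.31, 8.34 and 41.2 CPM (log2 fold change 3.97 ± 0.70, edgeR adjusted p = 0.00281), Mylk rose by 1.46 and Synpo2 by 1.73, and Myh11 rose in 17 settings. Endothelial genes summed to 205 to 226 against 145 to 193 CPM. Adgrf5, a receptor of endothelium and lung epithelium, had 0, 3 and 4 reads in the GHMT libraries and 78.6, 81.0 and 76.7 CPM in AGHMT, a rise kept in 23 settings whose size the few GHMT reads leave uncertain. Of 16 mast cell genes 14 had no read in GHMT and 3 had none in AGHMT, and most of their sum was Mcpt4, a mast cell protease (339, 317 and 309 against 65.5, 103 and 162 CPM). Skeletal muscle genes summed to 102 to 124 against 18.4 to 36.5 CPM, mostly from their 1 well-counted member (mean 89.0 against 16.0 CPM). Of these 22 genes 10 had no read in AGHMT, among them Myod1 and Myog, and 17 had none in GHMT. Chondrocyte and osteoblast genes ran the other way, at 84.1 to 106 against 125 to 384 CPM. The sum of epicardial and mesothelial genes was also lower, at 311 to 376 against 431 to 480 CPM. Their 4 well-counted members went both ways, 2 of them with log2 fold changes above 0. Of these 4, edgeR called 0, DESeq2 1 higher and 2 lower, and limma 1 higher and 1 lower. Several of these lists include genes that heart muscle also makes, and a list's zero genes depend on depth. The part of other cells in the rises of Cd36, Fabp4, Rgs5 or Mrc1 was not tested.

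**Figure D4:**
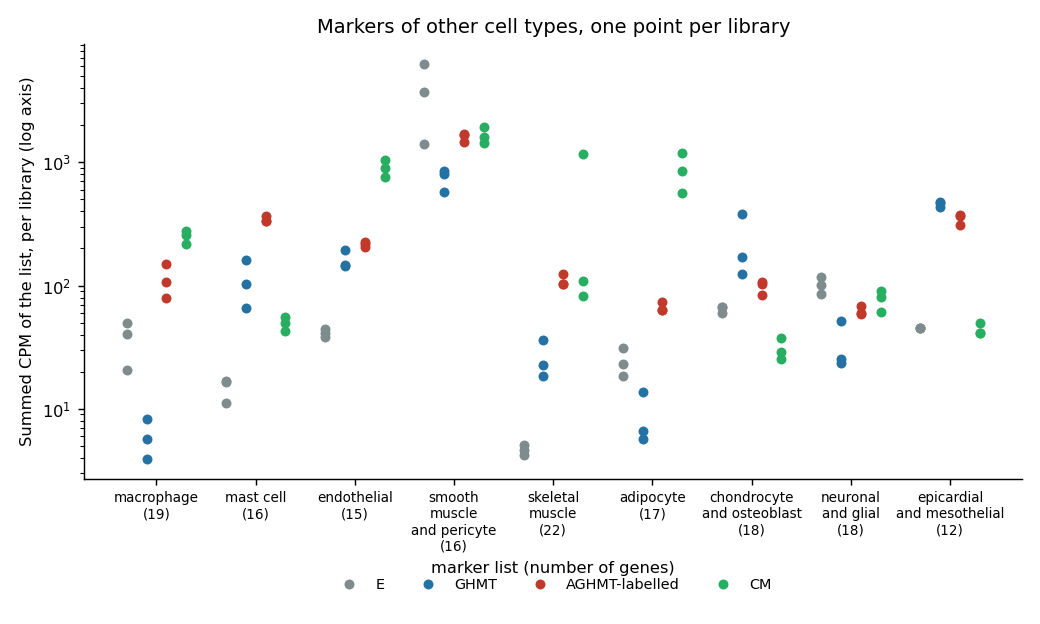
Summed CPM of marker genes of other cell types in each library of the 4 groups (log axis, CPM), 1 point per library, coloured by group (E, empty vector; CM, cardiomyocytes). Macrophage and adipocyte sums of the AGHMT libraries lie above all GHMT libraries, and chondrocyte and osteoblast sums lie below them.

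Lists of growth, stress and protein handling gave small or mixed counts. Their shares stand beside the 7.43% of all well-counted genes that rose and the 12.2% that fell. Of 6 well-counted cytosolic ribosomal proteins 3 rose (50%), and 1 to 5 over the settings. The 1 stable rise was Rps3, at 117, 175 and 132 against 10.5, 21.9 and 41.9 CPM. Over all 44 ribosomal proteins tested 6 were higher, where 13.2% of all genes tested were higher. Many such genes have near-identical copies, so reads shared with a pseudogene were not counted. Of 18 translation factors 1 rose (5.56%), Eif4g1, the scaffold of cap-dependent initiation (58.0, 103 and 66.8 against 3.93, 12 and 23.4 CPM, stable). Of 15 proteasome subunits 3 rose (20%), but 1 without GHMT replicate 1, 0 to 8 over the settings, and none was stable. Among 14 chaperones of the endoplasmic reticulum 3 rose (21.4%) and 1 fell (7.14%). P4hb, protein disulphide isomerase, rose by 1.69 in all settings. Canx, calnexin, stood at 2016, 1711 and 1658 against 8763, 6215 and 4621 CPM, and its call was lost without AGHMT replicate 3 (log2 fold change -1.11, edgeR adjusted p = 0.0931). The p53 target list gave no call in edgeR among 11 well-counted genes, and 0 at an unadjusted p under 0.05, while DESeq2 called 1 lower and limma 0. The cell cycle could hardly be read, with 3 well-counted mitosis genes and 2 of DNA replication, none of them called by edgeR, with 1 higher in each list at an unadjusted p under 0.05 and by DESeq2 and limma. The inhibitor Cdkn1c rose by 1.32 in 23 settings and Cdkn1b fell by 1.32 in 20. Il33, an alarmin cytokine, rose by 2.94 in all settings.

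Several of the largest falls belonged to genes of no list. Fhl3, a LIM-domain protein that binds actin and transcription factors, stood at 0.538, 1.6 and 0.709 CPM in AGHMT and at 49.8, 30.2 and 110 CPM in GHMT, with fibroblasts at 13.1 CPM. Its log2 fold change of -6.04 ± 0.82 (edgeR adjusted p = 0.00057) was stable. Slc6a6, the taurine transporter, stood at 124, 108 and 131 CPM against 2095, 1038 and 1043 CPM (-3.52 ± 0.35, edgeR adjusted p = 9.21e-05), with fibroblasts at 155 and cardiomyocytes at 75.0 CPM. Dusp7, a phosphatase of ERK kinases, fell by 3.24 and Foxn3, a forkhead repressor, by 3.13. For Patl1, an mRNA decapping factor, the AGHMT libraries (28.9 to 31.3 CPM) were close to the means of fibroblasts (31.3 CPM) and cardiomyocytes (30.3 CPM), and the GHMT libraries stood at 865, 108 and 51.5 CPM. GHMT replicate 1 was also the highest for Pvr, a nectin-like adhesion receptor (1034, 179 and 148 CPM), and for Rtn4rl1 (212, 25.5 and 32.3 CPM), and these calls held without it. Nucb2, the precursor of nesfatin, rose from 0, 5 and 2 reads in the GHMT libraries to 41.3, 46.2 and 35.9 CPM in AGHMT.

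**Figure D5:**
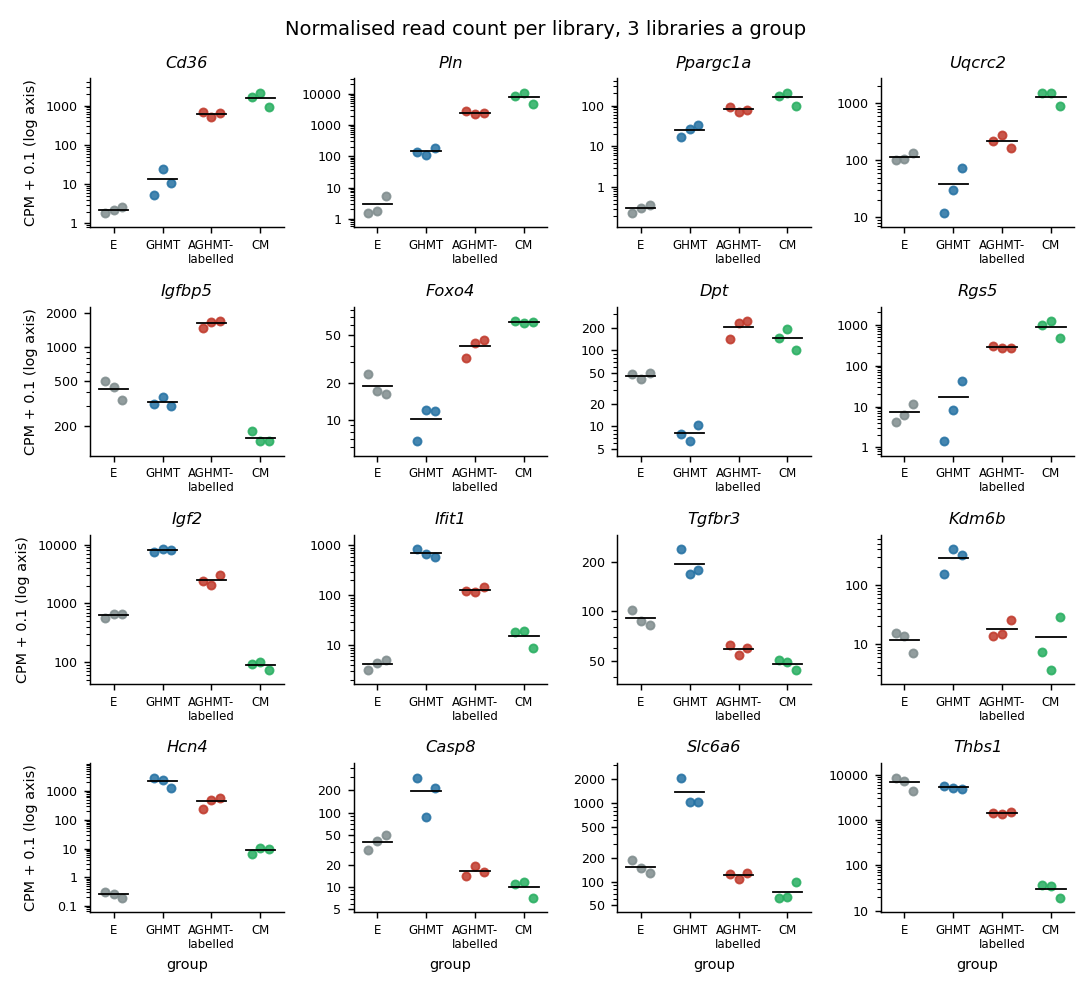
CPM plus 0.1 of 16 genes (vertical log axis) in the 3 libraries of each group, empty vector (E), GHMT, AGHMT-labelled and cardiomyocytes (CM), 1 point per library, with a bar at the group mean. Cd36 and Pln of the AGHMT-labelled libraries lie between GHMT and cardiomyocytes, and Slc6a6 and Kdm6b are higher in the GHMT libraries than in the other 3 groups.

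The order of the 4 group means differed between the 2 directions. Of the 553 lower calls, 542 had their highest mean in GHMT (98.0%), against 51.6% of all well-counted genes. Empty-vector fibroblasts lay within 2-fold of AGHMT in 263 of them and within 2-fold of GHMT in 55. Of the 59 stable lower calls, 57 were highest in GHMT, and fibroblasts were within 2-fold of AGHMT in 32 and of GHMT in 2. Of the 338 higher calls, 216 had their lowest mean in GHMT (63.9%), against 14.2% of all well-counted genes, and 162 their highest in cardiomyocytes. Cardiomyocytes were at least 2-fold above empty-vector fibroblasts in 45.3% of the higher calls, 13.9% of the lower calls and 17.0% of all well-counted genes, and in 64.0% of the stable higher calls. Since a call requires AGHMT and GHMT to differ, being highest or lowest in GHMT is partly fixed by the call. The same holds for which of these 2 groups lies nearer to fibroblasts. For that nearness no share over all well-counted genes was counted. Across the 4547 genes, which are not independent replicates, the log2 fold change of AGHMT over GHMT correlated with that of cardiomyocytes over fibroblasts at a Pearson r of 0.25 and a Spearman rho of 0.14, and these 2 comparisons share no library.

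The called genes also differed in measured properties. The higher calls had a median transcript length of 3402 bases and a GC content of 47.9%, against 4466 bases and 44.5% for the lower calls and 4339 bases and 44.8% for genes not called. Lower calls were the better counted, with a median of 131 CPM over the 6 libraries against 44.4 CPM. In the fifth of well-counted genes with the lowest CPM 104 were higher and 52 lower, and in the fifth with the highest CPM 32 were higher and 224 lower. The stable calls had a median GC content of 48.4% in each direction, and lengths of 3522 bases for the higher and 4484 for the lower. The part of length, composition or level in the direction of a call was not tested beyond the corrections given with the alternative settings.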

How the data were processed

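RNA was measured in 12 libraries of 4 groups of 3, and the AGHMT and GHMT groups are compared. The authors deposited a table of raw counts per Ensembl gene for each library, and per the submitters' processing notes Bowtie2 2.0.6, mm10, HTSeq and DESeq were used. Neither the annotation nor the strand setting is stated there. The authors also deposited a signal table of 26474 genes, which are counts divided by a size factor per library. All its values (100%) came out as whole reads within 0.001 and its totals equal those of the count tables, so it served as input to limma alone. Of 43629 gene identifiers 42548 matched GENCODE M21 (GRCm38), which gave names, positions, transcript lengths and GC content. Rows that name no gene stayed out of all sums, and reads that did not map uniquely made up 50.6% to 74.0% in the GHMT libraries.

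Counts were tested with edgeR 4.0.16 (R 4.3.3), TMM scaling, filterByExpr and a robust quasi-likelihood fit of all 12 libraries, with Benjamini-Hochberg adjustment over 15059 genes and a threshold of 0.05. CPM values are TMM-scaled and log2 CPM values use a prior count of 2. Fold changes are those of the edgeR fit, to which that prior count was not applied, and no replicate block was fitted. The self-test drew simulated counts at the real depths. Alternatives were other scalings, filters, DESeq2 1.42.0, limma 3.58.1 (pseudocount 1), corrections for GC and length, thinning and each library left out. The length correction was chosen after seeing the data. A promoter table from RefSeq (GRCm38.p6) gave the sequences.

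The comparison, the 61 gene lists and the tests were chosen with earlier results of these data known. Genes were named as follows: the forced genes and Myh6, the 15 largest folds per direction among well-counted calls without overlap, and from each list its most abundant member and up to 4 called members with the largest folds. Of these the text gives a choice. Outside this rule, and chosen after their values were seen, are 42 genes, Ndufa9, Ndufa5, Uqcrc2, Atp5b, Sdha, Ndufs1, Mdh1, Idh3b, Dlst, Ppargc1a, Tfam, Mfn2, Mfn1, Hadha, Slc25a20, Ppp1r3b, Ppp1r3c, Myom1, Ttn, Myoz2, Smyd1, Actc1, Ckmt2, Slc8a1, Ldb3, Mef2a, Col3a1, Col12a1, Pik3r3, Foxo3, Bmpr1a, Tgfbr1, Bmp2, Skil, Ifi44, Ifit2, Ifih1, Cmpk2, Tet3, Rbm24, Rbfox2 and Il33, and the marker genes named for having no read.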

Additional observations from a re-analysis of the deposited data

How the results depend on the processing

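Calls in AGHMT against GHMT were 1993 higher and 689 lower over all genes tested and 338 higher and 553 lower among well-counted genes. With DESeq2's size factors in edgeR the well-counted lower calls became 882. With total counts the lower calls were 142, and the well-counted calls 519 higher and 95 lower. Without mitochondrially encoded genes they were 3188 higher and 337 lower, and 655 and 255 well counted. The 6 libraries alone gave 1074 higher and 179 well-counted higher. A test against a 1.5-fold change gave 330 lower, and 192 higher and 247 lower well counted. GC correction gave 524 well-counted higher, thinning to 1 depth 1127 higher, DESeq2 1589 lower and 1249 well-counted lower, and limma 3721 higher and 888 well-counted lower. A minimum mean of 10 CPM gave 582 higher and one of 50 CPM 149. Leaving out 1 library gave 865 to 3851 higher and 91 to 1060 lower, and 153 to 868 and 64 to 779 well counted. The cause of these shifts was not tested. The replicate numbers were not used to pair the samples. Deviations of same-numbered libraries correlated at 0.12, -0.10 and -0.21, and those of differently numbered ones at -0.20 to 0.30. With 3 libraries a group this cannot show whether replicates were prepared together. A replicate block gave 1049 higher and 306 lower, with 264 well-counted lower. Of 121 named genes 115 were called and 79 of these held in all 24 settings. Directions turned for genes that were not called. Leaving out 1 library took Akt1 from -0.060 (without GHMT replicate 1) to 0.92, Gata4 from -0.13 to 1.17 (-0.13 without GHMT replicate 1, -0.036 without GHMT replicate 3), Hand2 from -0.23 (without GHMT replicate 1) to 0.85, and Mef2c from -0.486 to 0.25 (0.23 without AGHMT replicate 3, 0.25 without empty-vector replicate 1). Gata4 was at -0.11 with GC correction and -0.033 thinned, Hand2 at -0.064 with GC and -0.088 with length correction, and Mef2c at 0.22 with total counts and 0.17 with GC correction. Depth limits low genes most: a GHMT library needs at least 1.56 CPM to hold 3 reads.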
